A study of Mus musculus with 23 samples.

Results

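The regions described here lie at Grin2a and Grin2b, 2 genes for NMDA receptor subunits. They were taken from 16 lists of enriched chromatin regions as every region that overlapped chr16:9550000-10050000 (the Grin2a window, 500 kb) or chr6:135630000-136170000 (the Grin2b window, 540 kb), in the mouse build mm9. The windows held 764 of the 527177 regions in the 16 lists: 344 in the Grin2a window and 420 in the Grin2b window.

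The lists came from the cortex of C57BL6J mice at postnatal day 56, an adult age. Chromatin immunoprecipitation followed by sequencing was made for 2 histone marks in 4 cortical subregions, the anterior cingulate cortex (ACC), the retrosplenial cortex (RSC), the lateral entorhinal cortex (LEC) and the medial entorhinal cortex (MEC). H3K27ac, acetylated lysine 27 of histone H3, marks active enhancers and promoters, and H3K4me2, dimethylated lysine 4, marks enhancers and promoters whether active or not. The labels describe 23 samples, with 2 libraries per subregion and mark except MEC H3K4me2, which had 1, and the rest were input libraries. No group carried a treatment or a genetic change, and the chromatin came from dissected tissue, which mixes cell types.

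Each subregion and mark had 1 full list and 1 enhancer list, and every enhancer region was also in its full list. Regions of a full list that were left out of its enhancer list are called excluded regions. Each list combines its libraries and holds positions only, so no value below has a replicate error and no test between subregions could be made. The sequencing depth is unknown. Fewer cells carrying a mark, less of the mark per cell and a shallower library cannot be told apart, and each comparison is therefore set beside the same measure over the whole genome.

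NMDA receptors are glutamate-gated cation channels that admit calcium when glutamate binds while the cell is depolarised, and they are needed for many forms of synaptic plasticity. Each receptor joins obligatory GluN1 subunits with others, which in the forebrain are mostly GluN2A, encoded by Grin2a, and GluN2B, encoded by Grin2b. GluN2B predominates before birth and early in life, GluN2A rises during postnatal development, and the adult cortex holds both. Both genes are long, with wide introns, and are transcribed from the reverse strand, so each gene starts at the high-coordinate end of its window.

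The candidate promoter of each gene was taken as the stretch of excluded regions found in the most of the 8 combinations of subregion and mark. In the Grin2a window this stretch was chr16:9983851-9997500, 13650 bp wide and excluded in 7 of 8 lists. In the Grin2b window it was chr6:136092001-136125175, 33175 bp wide and excluded in all 8. Both lay at the high-coordinate end, where the genes start. No gene annotation of mm9 was used, so the gene names rest on the windows and on these stretches. In the RefSeq gene table of GRCm38.p6, the gene that follows each one is a long non-coding RNA, Gm30668 after Grin2a and Gm26653 after Grin2b. The distance of either neighbour from the candidate promoter was not measured. Whether a mark at the start of a receptor gene belongs to that neighbour could therefore not be told. Exclusion was not confined to the candidate promoters: the windows held 7 and 10 excluded stretches, including chr16:9669451-9696800 (27350 bp, 4 lists) and chr6:135799851-135828850 (29000 bp, 5 lists).

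At the Grin2a candidate promoter the LEC differed from the other subregions. The excluded H3K4me2 region was 13025 bp wide in the ACC and 12425 bp in the RSC, and the MEC had 2 excluded regions of 8750 and 525 bp. The LEC H3K4me2 list held no region in the stretch, full list included. Its nearest region, chr16:9952651-9955000, ended 28.85 kb away, and the LEC H3K4me2 full list was empty over 237.2 kb, from chr16:9955001 to 10192250. That gap runs past the end of the window, and gaps beyond the window were not measured for the other lists. The LEC did have H3K27ac in the stretch, as a 6075 bp excluded region and a 4200 bp enhancer region. The H3K27ac excluded region was 13425 bp wide in the ACC, 12150 bp in the RSC and 5500 bp in the MEC. H3K27ac was thus listed at the Grin2a start in all 4 subregions, over fewer bases in both entorhinal divisions, and H3K4me2 in 3 of 4. Across the genome, 4943 stretches were excluded in the 7 lists other than LEC H3K4me2, and 357 of them (7.22%) had no region in the LEC H3K4me2 full list. For the other lists taken in turn, the share was 8.18% in LEC H3K27ac, 14.3% and 9.57% in ACC H3K27ac and H3K4me2, 11.2% and 8.5% in the RSC, and 20% and 6.02% in the MEC.

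At the Grin2b candidate promoter all 4 subregions carried broad regions of both marks. The excluded H3K27ac region was 22825 bp wide in the ACC, 22100 bp in the RSC, 17500 bp in the LEC and 16050 bp in the MEC. For H3K4me2 the widths were 32950 bp in the ACC, 22225 bp in the RSC, 29525 bp in the LEC and 17200 bp in the MEC. The narrowest of these 8 regions was wider than any region at the Grin2a candidate promoter.

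**Figure D1:**
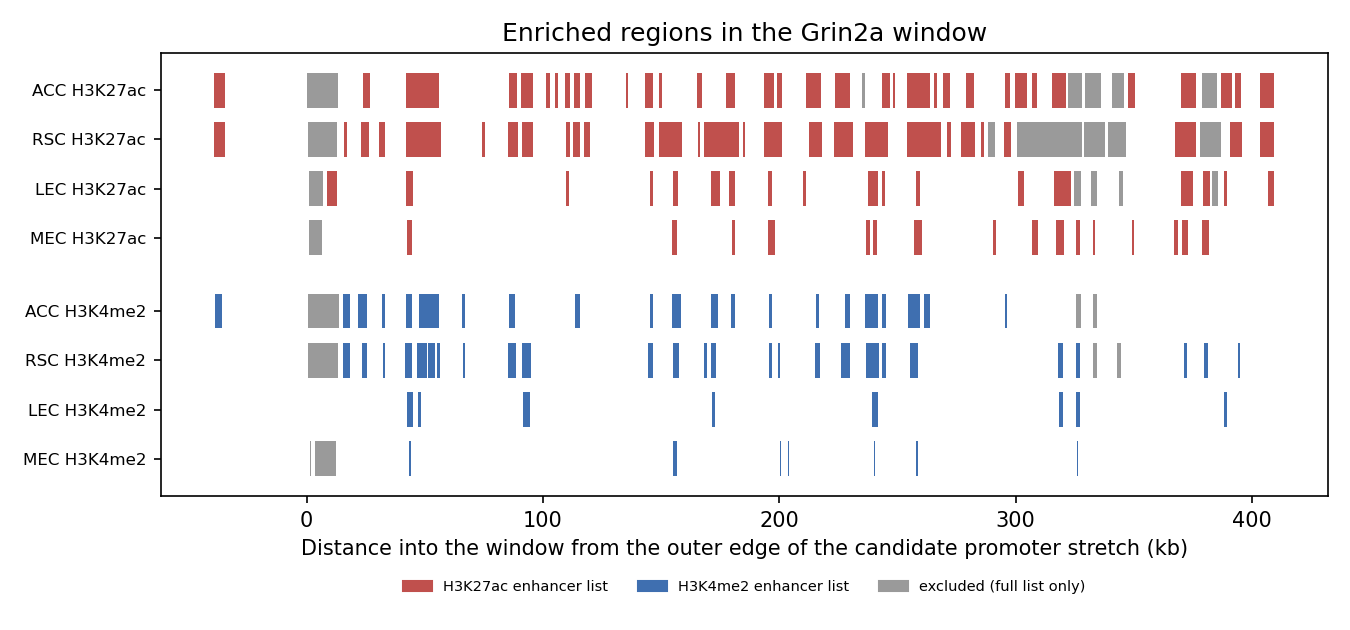
Enriched regions of the Grin2a window for each subregion and mark, against the distance in kb from the outer edge of the candidate promoter stretch (0) into the window. Coloured bars are enhancer-list regions and grey bars are excluded regions. The LEC H3K4me2 row has no bar at 0. The H3K27ac rows of the LEC and MEC are sparse between 50 and 150 kb, where the H3K27ac rows of the ACC and RSC are dense.

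Grin2a carried much more listed enhancer sequence in the midline areas than in the entorhinal ones. H3K27ac enhancer regions covered 130.4 kb (26.1% of the window, 34 regions) in the ACC and 152.6 kb (30.5%, 29 regions) in the RSC. They covered 49.48 kb (9.89%, 18 regions) in the LEC and 32.62 kb (6.52%, 16 regions) in the MEC. H3K4me2 enhancer regions gave the same division, with 58.33 kb in the ACC (21 regions), 60.48 kb in the RSC (26), 14.57 kb in the LEC (8) and 5.8 kb in the MEC (7). The RSC was above the ACC at Grin2a for both marks, although its lists were shorter than those of the ACC over the genome.

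Relative to the ACC, H3K27ac cover at Grin2a was 0.379 in the LEC, against 0.83 for the whole enhancer lists, and H3K4me2 cover was 0.25, against 0.8. For both marks the LEC ratio at Grin2a was thus below that of the whole lists, and the cause was not tested. In the genome, 1140 tiles of 500 kb had at least 5% of their bases under ACC H3K27ac enhancer regions, and 73 of them (6.4%) had a LEC ratio as low as that of Grin2a or lower. For H3K4me2 it was 2 of 989 tiles (0.202%). Including the excluded regions left both ratios low, at 0.384 for H3K27ac (52 of 2065 tiles as low, 2.52%) and 0.195 for H3K4me2 (1 of 2235, 0.0447%). The MEC ratios were lower still, 0.25 for H3K27ac and 0.0994 for H3K4me2, but 48.2% and 32.9% of tiles had MEC ratios as low. In the full lists the MEC ratios were 0.225 and 0.202, with 30.9% and 18.9% of tiles as low. The MEC cover at Grin2a therefore lay within what its short lists gave elsewhere, and MEC H3K4me2 rests on 1 library. The RSC ratios of 1.17 and 1.04 were reached or passed in 10.4% and 6.07% of tiles. In the full lists they were 1.3 and 1.02, reached or passed in 4.12% and 10.4% of tiles.

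**Figure D2:**
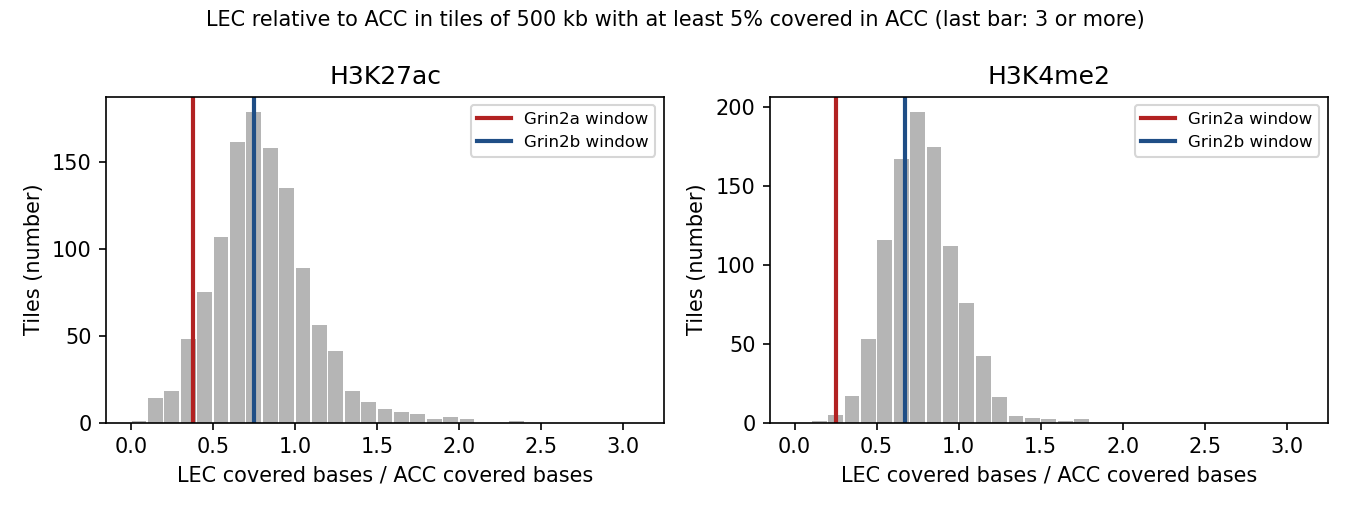
Number of 500 kb genome tiles (y axis) by the ratio of LEC to ACC enhancer-list bases (x axis), for tiles at least 5% covered in the ACC, with lines at the ratios of the 2 windows. The Grin2a line lies in the lower tail, at 0.379 for H3K27ac and 0.25 for H3K4me2, and the Grin2b line lies near the middle, at 0.75 and 0.673.

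Grin2b was covered in all 4 subregions. H3K27ac enhancer regions covered 149.5 kb (27.7% of the window, 31 regions) in the ACC, 173.7 kb (32.2%, 30 regions) in the RSC, 112.2 kb (20.8%, 21 regions) in the LEC and 103.2 kb (19.1%, 16 regions) in the MEC. The RSC ratio to the ACC was 1.16, reached or passed in 10.6% of 1073 tiles of 540 kb. The LEC ratio was 0.75, with 44.8% of tiles at or below it. The MEC ratio was 0.69, against 0.367 for the whole lists, and 90.6% of tiles were at or below it, so Grin2b was among the loci where MEC H3K27ac came nearest to the ACC. In the full lists the RSC ratio was 0.964 (76.5% of 1959 tiles at or below it), the LEC ratio 0.65 (21.3%) and the MEC ratio 0.584 (87.9%). The LEC thus stood lower among the tiles in the full lists than in the enhancer lists. For H3K4me2 the cover was 103 kb in the ACC (26 regions), 96.12 kb in the RSC (30), 69.38 kb in the LEC (25) and 17.05 kb in the MEC (15). The RSC ratio of 0.933 for that mark was matched or undercut in 88.1% of tiles, the LEC ratio of 0.673 in 31.8% and the MEC ratio of 0.165 in 63.8%. In the full lists these ratios were 0.856 (67.7% of tiles), 0.715 (20.5%) and 0.248 (30.4%), and the whole MEC lists had ratios of 0.201 (enhancer) and 0.343 (full). With excluded regions included, the ACC covered more than the RSC for H3K27ac at Grin2b (228.7 against 220.5 kb), so the order of these 2 depends on the list used.

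**Figure D3:**
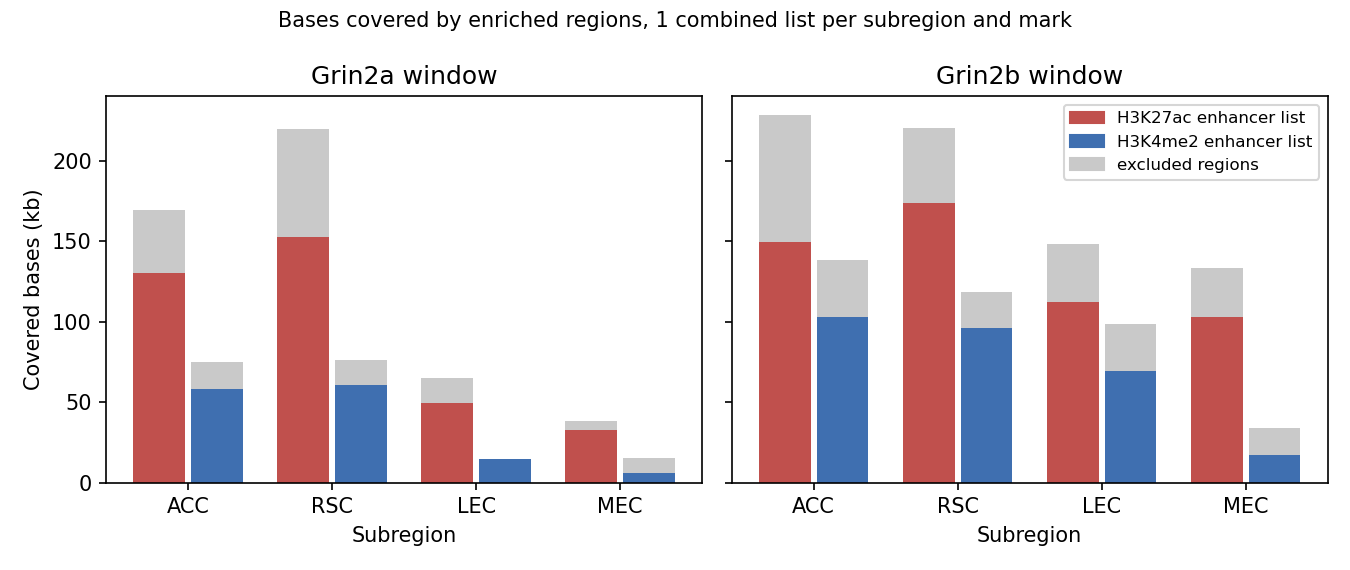
Bases covered (kb, y axis from 0) in each window by subregion, with enhancer-list bases in colour and excluded bases stacked in grey, 1 combined list per bar and so no error bars. At Grin2a the LEC and MEC bars stand far below the ACC and RSC bars for both marks, and at Grin2b only the MEC H3K4me2 bar does.

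Both loci ranked high among genome tiles of their own length in the midline lists. Tiles with at least as many H3K27ac enhancer bases as Grin2a made up 0.389% in the ACC, 0.136% in the RSC, 5.23% in the LEC and 3.17% in the MEC. For Grin2b they made up 0.189%, 0.105%, 0.547% and 0.105%. Grin2b was thus among the most covered stretches in every subregion, and Grin2a in the ACC and RSC. In H3K4me2, Grin2a was ordinary in the LEC (28.3% of tiles as covered) and the MEC (14.1%) and high in the RSC (0.798%), with 3.15% in the ACC. Grin2b stayed below 1% in every H3K4me2 list, at 0.378% in the ACC, 0.0841% in the RSC, 0.778% in the LEC and 0.799% in the MEC.

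Enhancer regions of a mark were merged across subregions into elements wherever they overlapped by at least 1 bp. The Grin2a window held 43 H3K27ac elements, of which 14 were in 1 subregion, 17 in 2, 6 in 3 and 6 in all 4; the genome shares of these classes were 43.2%, 27.2%, 19.9% and 9.72%. The ACC and RSC pair alone held 13 of them (30.2%, Wilson 95% interval 18.6% to 45.1%), against 9.98% of all H3K27ac elements of the genome. All 13 were also absent from the full lists of the LEC and MEC, but the genome share of such absence was not computed. The 13 elements were spread along the window, from 34.4 kb outside the candidate promoter at chr16:10031901-10036775 to 282 kb inside it at chr16:9699476-9702275. H3K4me2 repeated the pattern with 10 of 32 elements in the ACC and RSC alone (31.2%, 18% to 48.6%), against 9.07% in the genome. At Grin2b the pair alone held 8 of 39 H3K27ac elements (20.5%, 10.8% to 35.5%), also above the genome share. All 8 were likewise absent from the LEC and MEC full lists. For H3K4me2 the pair alone held 3 of 42 elements at Grin2b (7.14%, 2.46% to 19%). Intervals cover counting error only, and neighbouring elements are not independent.

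Counted in bases, 39% of the H3K27ac enhancer sequence of the Grin2a window (77.83 kb) was in the ACC and RSC alone, against 9.75% in the genome and 10.9% in the Grin2b window. For H3K4me2 the shares were 37.9%, 10.3% and 12.1%. The full lists gave 38.3% at Grin2a for H3K27ac and 36.5% for H3K4me2. Sequence in all 4 subregions made up 4.87% of the H3K27ac total at Grin2a (9.7 kb), 32.2% at Grin2b (67.22 kb) and 8.31% in the genome. In H3K27ac bases common to all 4, the 2 genes thus stood on opposite sides of the genome. Counted in elements they did not, with 6 of 43 (14%) at Grin2a and 8 of 39 (20.5%) at Grin2b, against 9.72%. The most common kind of shared H3K27ac sequence at Grin2a was that of the ACC and RSC alone. At Grin2b it was that of all 4 subregions. In H3K4me2 the share common to all 4 was 1.56% at Grin2a and 7.38% at Grin2b, against 5.24%, and 30% of the Grin2b sequence was in the ACC, RSC and LEC without the MEC (19.8% in the genome).

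**Figure D4:**
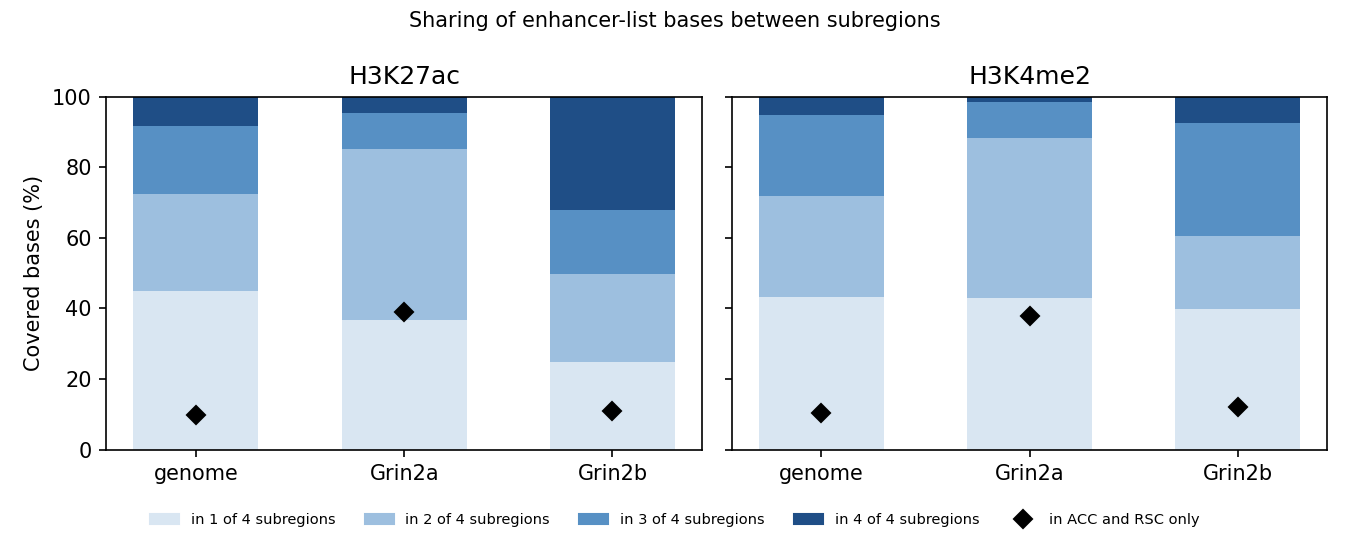
Enhancer-list bases by the number of subregions that cover them, as a percentage of bases covered in any subregion (y axis), for the genome and the 2 windows, with diamonds for bases in the ACC and RSC only. For H3K27ac the diamond stands at 39% for Grin2a against 9.75% for the genome, and the darkest part (all 4 subregions) at 32.2% for Grin2b against 8.31%.

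In H3K27ac, pairs of subregions gave the same picture. The ACC and RSC shared 54.6% of the bases in either H3K27ac list at Grin2a (42.6% in the genome). The ACC and LEC shared 18.9% (41.2% in the genome), and the RSC and LEC 17.5% (35%). The 2 entorhinal divisions shared 31.9% at Grin2a, above their genome value of 19.3%. At Grin2b every pair shared at least 47.4%. The ACC and MEC pair and the LEC and MEC pair were the lowest there (18% and 19.3% in the genome). Of the MEC H3K27ac enhancer bases at Grin2b, 94.6% lay in RSC regions (63% in the genome). In H3K4me2 the ACC and RSC shared 50.9% at Grin2a (43.2% in the genome), the ACC and LEC 10.2% (44.7%) and the RSC and LEC 20.9% (39.7%). The 2 entorhinal divisions shared 9.84% of that mark at Grin2a, below their genome value of 12.3%, and 6.56% against 31.5% in the full lists, so their closeness there was seen in H3K27ac and not in H3K4me2. At Grin2b the H3K4me2 pairs without the MEC shared 48.2% to 55.8% (39.7% to 44.7% in the genome). Those with the MEC shared 11.3% (ACC), 13.5% (RSC) and 14.8% (LEC). Their genome values were 10.3%, 13.6% and 12.3%, so the pairs with the MEC were near their genome values.

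All 4 subregions carried 6 H3K27ac elements of Grin2a, and in each the RSC covered the most bases. The element nearest the candidate promoter, chr16:9940626-9955650, lay 28.2 kb from it and was covered over 14.12 kb in the ACC, 15.03 kb in the RSC, 3.05 kb in the LEC and 2.35 kb in the MEC. The RSC region of 15025 bp that spans it was the widest H3K27ac enhancer region of the window, equal in width to another RSC region at chr16:9814476-9829500. The widest H3K4me2 enhancer region, 8825 bp in the ACC at chr16:9941301-9950125, lay in the same element. H3K4me2 covered 11.28 kb of that element in the ACC, 11.38 kb in the RSC, 3.35 kb in the LEC and 0.775 kb in the MEC. All 4 subregions thus listed both marks at this element, over fewer bases in the entorhinal lists.

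In 4 of the 6 the ACC covered more than both entorhinal lists, and in 2 the LEC covered more than the ACC. At chr16:9814476-9829500 the RSC covered 15.03 kb, the LEC 6.2 kb, the ACC 3.8 kb and the MEC 1.1 kb. At chr16:9729076-9743550 the ACC covered 11.1 kb and the RSC 14.3 kb, against 1.85 kb in the LEC and 3.225 kb in the MEC. At chr16:9750751-9761175 the RSC covered 9.825 kb, the LEC 5.575 kb, the ACC 3.475 kb and the MEC 3.175 kb, and H3K4me2 was listed in all 4. The remaining 2 were chr16:9796201-9803925, with 6.075 kb in the ACC, 7.725 kb in the RSC, 1.875 kb in the LEC and 2.8 kb in the MEC, and chr16:9621001-9630300, with 6.375, 8.975, 4.75 and 4 kb. All 6 held H3K4me2 in at least 1 subregion, and 2 held it in all 4. The genome share for elements of this kind was not computed.

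**Figure D5:**
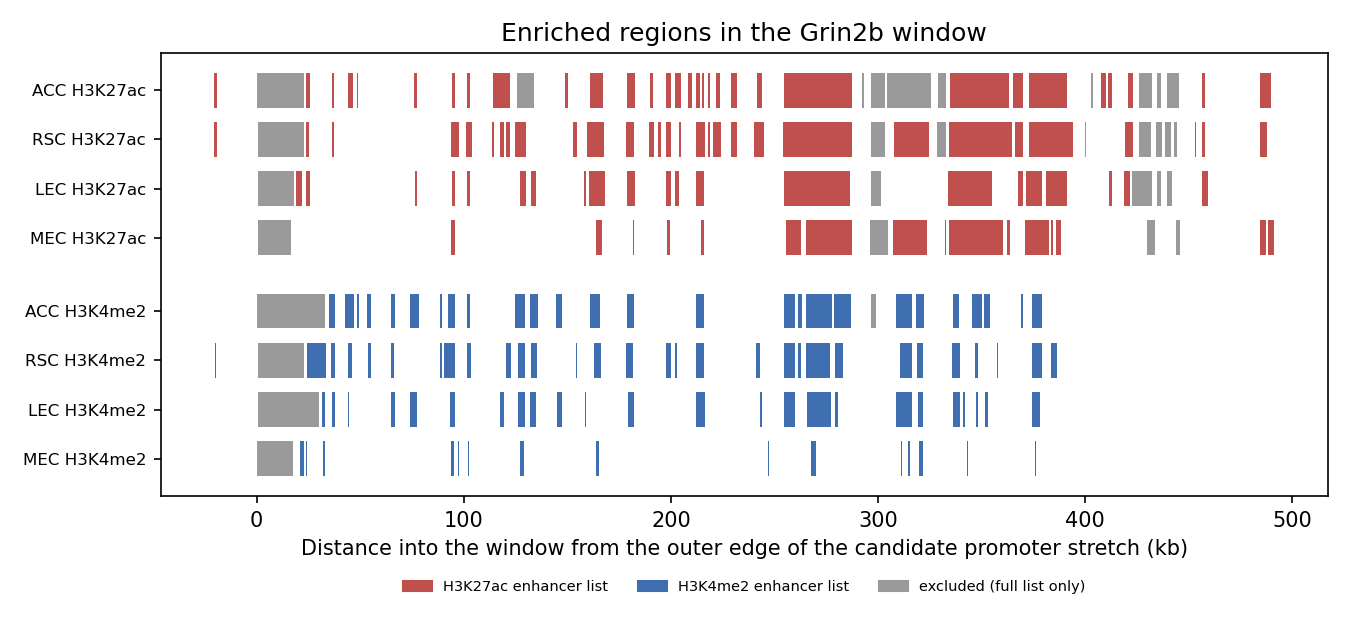
Enriched regions of the Grin2b window, drawn as for Grin2a, against the distance in kb from the outer edge of the candidate promoter stretch. All 8 rows have a grey bar at 0, and the H3K27ac rows of all 4 subregions hold wide bars between 250 and 400 kb.

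Of the 39 H3K27ac elements of Grin2b, 8 were in all 4 subregions (20.5%, 10.8% to 35.5%), against 9.72% in the genome. They included 3 of 10 kb or wider, all in the part of the window far from the candidate promoter. The widest, chr6:135837601-135870875, lay 221 kb from the candidate promoter and was covered over 33.08 kb in the ACC, 33.08 kb in the RSC, 32.2 kb in the LEC and 29.4 kb in the MEC. Its H3K27ac cover was nearly the same in the 4 subregions. Its H3K4me2 cover was not: 28.3 kb in the ACC, 22.73 kb in the RSC, 17.98 kb in the LEC and 2.225 kb in the MEC. The widest H3K27ac enhancer region of the window (33075 bp in both the ACC and RSC; in the RSC at chr6:135837801-135870875) and the widest H3K4me2 one (12550 bp in the ACC, chr6:135847351-135859900) both lay in it.

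The second, chr6:135760451-135791475, was covered over 28.88 kb in the ACC, 30.65 kb in the RSC, 21.12 kb in the LEC and 27.38 kb in the MEC. The third, chr6:135730976-135754025, was covered over 18.32, 21.52, 17.48 and 14.82 kb in the same order. The MEC, with the shortest H3K27ac list of the series, came close to the ACC in these 3 elements. The other 5 ranged from chr6:135925226-135927525, 2300 bp wide, to chr6:135957226-135965525, 8300 bp wide. In the last of these the MEC covered 2.75 kb, against 6.275 kb in the ACC and 7.825 kb in the RSC. All 8 held H3K4me2 in at least 1 subregion, and 4 held it in all 4, again with no genome share computed.

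H3K27ac enhancer regions of 10 kb or wider numbered 2 in the ACC, 3 in the RSC and 0 in the LEC and MEC at Grin2a. At Grin2b they numbered 3 in the ACC, 4 in the RSC, 2 in the LEC and 4 in the MEC, that is 4 of 16 MEC regions. Such widths make up 2.83% of H3K27ac enhancer regions in the ACC, 2.46% in the RSC, 2.3% in the LEC and 1.76% in the MEC over the genome.

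Elements in a single subregion were narrow, from 700 to 4200 bp for H3K27ac at Grin2a and from 675 to 2850 bp at Grin2b, and their shares were below or near those of the genome. At Grin2a 14 of 43 H3K27ac elements (32.6%, 20.5% to 47.5%) and at Grin2b 12 of 39 (30.8%, 18.6% to 46.4%) were in 1 subregion, against 43.2% in the genome. For H3K4me2 it was 13 of 32 (40.6%, 25.5% to 57.7%) and 16 of 42 (38.1%, 25% to 53.2%), against 41%. By subregion the H3K27ac elements at Grin2a numbered 4 in the ACC (9.3%), 5 in the RSC (11.6%), 2 in the LEC (4.65%) and 3 in the MEC (6.98%). At Grin2b they numbered 5, 3, 3 and 1 (12.8%, 7.69%, 7.69% and 2.56%). The genome shares were 15.2%, 11.8%, 11% and 5.19%. The H3K4me2 ones numbered 5, 5, 1 and 2 at Grin2a (15.6%, 15.6%, 3.12% and 6.25%). At Grin2b they numbered 2, 7, 3 and 4 (4.76%, 16.7%, 7.14% and 9.52%). The genome shares for that mark were 13.6%, 8.87%, 9.08% and 9.41%. For both marks each genome share lay within the Wilson 95% interval of the window share.

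Several of these were single only because the other subregions had an excluded region at the same place. At Grin2a all 4 ACC and all 5 RSC elements with H3K27ac, and at Grin2b all 5 and all 3, were absent from the full lists of the other subregions. In the LEC it was 1 of 2 at Grin2a and 1 of 3 at Grin2b, and in the MEC 0 of 3 and 0 of 1. Every MEC H3K27ac element called single in the enhancer lists of these windows therefore lay on an excluded region of another subregion. These counts are small and their genome shares by subregion were not computed, so the subregions cannot be set apart by them. Over the 4 subregions together, 4 of 14 elements at Grin2a did so (28.6%, 11.7% to 54.6%). At Grin2b it was 3 of 12 (25%, 8.89% to 53.2%), against 18.9% in the genome. For H3K4me2 it was 0 of 13 at Grin2a and 1 of 16 at Grin2b, against 15.9%. The LEC element that remained at Grin2a, chr16:9786201-9787500 (1300 bp), lay directly beside an element of the ACC and RSC that ended at the base before it.

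An H3K27ac element of 1 subregion that overlapped an H3K4me2 enhancer region of that subregion and of no other was called doubly marked. Grin2a had 0 among its 14, and Grin2b had 3 among its 12, against 12% in the genome. They were chr6:135965951-135966975 in the LEC (1025 bp), chr6:135970401-135972225 in the RSC (1825 bp) and chr6:136076101-136076975 in the ACC (875 bp). The first 2 lay 125 and 120 kb from the candidate promoter, so the LEC and the RSC element stood near each other. The LEC element began less than 500 bp past the end of chr6:135957226-135965525, an H3K27ac element of all 4 subregions. That neighbour held H3K4me2 enhancer regions in the ACC, RSC and MEC. The ACC element lay 15 kb from the candidate promoter. No full list of another subregion held H3K27ac or H3K4me2 at any of the 3.

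H3K4me2 enhancer regions at both genes mostly lay under H3K27ac, while much H3K27ac lay outside H3K4me2. At Grin2a, 15 of 21 H3K4me2 regions in the ACC overlapped an H3K27ac enhancer region of the ACC (71.4%, against 53.1% in the genome), 22 of 26 in the RSC (84.6%, against 48.4%), 5 of 8 in the LEC (62.5%, against 50.4%) and 5 of 7 in the MEC (71.4%, against 26.2%). At Grin2b it was 18 of 26 in the ACC (69.2%), 24 of 30 in the RSC (80%), 16 of 25 in the LEC (64%) and 8 of 15 in the MEC (53.3%). The window itself is densely covered by H3K27ac, and no correction for that cover was made. Conversely, 5 of 18 LEC H3K27ac regions at Grin2a overlapped LEC H3K4me2 (27.8%, 12.5% to 50.9%), against 60.5% in the genome, and 13 of 34 in the ACC (38.2%, 23.9% to 55%), against 61%. The RSC was close to its genome share, with 16 of 29 (55.2%, against 53.7%), and so was the MEC, with 5 of 16 (31.2%, against 34.3%). The Grin2b shares were 45.2% in the ACC, 56.7% in the RSC, 47.6% in the LEC and 37.5% in the MEC.

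The balance of the marks was shifted to H3K27ac in both windows. H3K4me2 enhancer bases per H3K27ac enhancer base were 0.447 in the ACC, 0.396 in the RSC, 0.295 in the LEC and 0.178 in the MEC at Grin2a. At Grin2b the ratios were 0.689, 0.554, 0.618 and 0.165. All 8 were below the genome ratios of 0.884, 0.783, 0.852 and 0.483.

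Along the Grin2a window the midline and entorhinal lists lay apart over several stretches, but not in every one. In the 50 kb nearest the outer edge of the candidate promoter, H3K27ac enhancer regions covered 11.15 kb in the ACC, 15.32 kb in the RSC, 7.25 kb in the LEC and 2.35 kb in the MEC. Between 50 and 100 kb from that edge they covered 14.7 kb in the ACC and 16.88 kb in the RSC, and 0 kb in the LEC and MEC. Between 100 and 150 kb they covered 15.78 and 12.47 kb in the midline areas, 2.25 kb in the LEC and 0 kb in the MEC. The MEC H3K27ac full list held no region over 110.1 kb in this part of the window, and its H3K4me2 full list none over 111 kb. Between 150 and 200 kb the LEC came near the ACC, with 10.22 against 11.25 kb, while the RSC covered 32.23 kb and the MEC 5.775 kb. Between 200 and 250 kb the cover was 17.93 kb in the ACC, 24.68 kb in the RSC, 6.875 kb in the LEC and 3.175 kb in the MEC, and between 250 and 300 kb it was 19.77, 26.12, 1.85 and 4.9 kb. In kb the midline and entorhinal lists were thus as far apart at 250 to 300 kb as at 50 to 100 kb or farther. Relative to the ACC they were farther apart at 50 to 100 kb, where the LEC and MEC covered 0 kb. Between 300 and 350 kb the cover was 14.93 kb in the ACC, 0 kb in the RSC, 9.6 kb in the LEC and 9.675 kb in the MEC. Between 350 and 400 kb the cover was 14.32 kb in the ACC, 13.97 kb in the RSC, 9.025 kb in the LEC and 6.75 kb in the MEC. The ACC H3K4me2 enhancer list held no region beyond 300 kb, and the RSC covered 3.6 kb and the LEC 3.45 kb between 300 and 350 kb. The ACC full list did hold H3K4me2 there, as 2 excluded regions. The RSC H3K27ac enhancer list was empty between 300 and 350 kb, where its full list held 3 excluded regions, the widest being chr16:9669451-9696800 (27350 bp). The ACC and LEC also had 3 excluded H3K27ac regions each in this stretch, and the MEC none, so the enhancer lists leave out marked sequence of 3 subregions there.

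Along the Grin2b window H3K27ac was concentrated 250 to 400 kb from the outer edge of the candidate promoter. Between 250 and 300 kb it covered 33.08 kb in the ACC, 33.08 kb in the RSC, 32.2 kb in the LEC and 29.4 kb in the MEC. In the 50 kb nearest the candidate promoter's edge, much of which the excluded promoter region itself takes up, it covered 5.9, 2.825, 4.575 and 0 kb. H3K27ac still covered between 2.5 and 6.725 kb per subregion from 450 kb to the end of the window, but no H3K4me2 enhancer list had a region beyond 400 kb. The H3K27ac full list of the MEC had its widest gap, 77.22 kb, next to the candidate promoter.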

How the data were processed

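The deposited files are lists of region start and end positions, in bp and 1-based here. Bowtie 1.1.1, bedtools 2.19.0 and the build mm9 are named, per the submitters' processing notes. Every list is labelled as holding reproducible regions and carries a numeric tag. The calling method, the rule behind that label, the way libraries were combined and the cut that made the enhancer lists remain unknown. MEC H3K4me2 bears the same label with 1 library, so in that list the label cannot mean agreement between libraries. Of 17 deposited lists, 16 were used, the other being a copy of 1 of them. The deposited score, in 14 lists, equalled the region width (0 exceptions) and was not used. Tissue was dissected from both hemispheres of 500 µm sections and snap-frozen, per the labels. Whether libraries came from separate animals is not given, and the lists hold no expression, so tissue identity was not checked against marker genes.

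Regions were counted by any overlap with a window, and elements merged at 1 bp overlap, with Python 3.11.15, numpy 2.4.6, scipy 1.17.1 and matplotlib 3.10.9. On simulated lists the merging recovered 4000 of 4000 planted elements. Genome tiles had the window's length and left out tiles touching either window. Regions named singly were the candidate promoters, the H3K27ac elements of all 4 subregions, the doubly marked elements and the widest enhancer region per mark; others were named after their values were seen. Members, lists and comparisons were chosen with earlier results of these data known. The ratios to the ACC and the full-list sharing were added after seeing the data.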

Additional observations from a re-analysis of the deposited data

How the results depend on the processing

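Counts of enhancer regions per list and of single-subregion elements were recomputed with regions of at least 1000 bp, and, as fits each, with region midpoints in the window, with gaps up to 500 bp joined, with sharing at 50% cover, or with the full lists of the other subregions. Of 60 recomputed counts, 57 stayed within 1.5 times the reported one. Requiring 1000 bp took MEC H3K4me2 enhancer regions from 7 to 1 at Grin2a and from 15 to 6 at Grin2b, and single-subregion H3K4me2 elements at Grin2b from 16 to 8. No paired analysis was possible because each list combines its libraries, and for the same reason no library could be left out. The unknown depth limits every comparison of list lengths, most of all for MEC H3K4me2.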
